A study of Mus musculus with 34 samples.

Results

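The NF-kappaB pathway loci are the places at 7 genes, Rel, Rela, Nfkb1, Nfkb2, Nfkbia, Tnfaip3 and Traf1, where the transcription factors BATF, IRF4 or Foxp3 were mapped in mouse CD4 T cells. A peak, which is a stretch of genome where DNA bound by the factor is enriched, went to the protein-coding gene of mm10 whose body lay closest. It counted as 0 bp away where it touched the body, and peaks farther than 100000 bp from any body were left unassigned. The 7 genes took 50 of 41612 peaks in the 4 deposited tables, namely 17 of 16109 in the first BATF table, 8 of 9973 in the second, 16 of 9134 in the IRF4 table and 9 of 6396 in the Foxp3 table. By gene, Tnfaip3 had 17 peaks, Nfkb1 13, Nfkbia 6, Nfkb2 5, Rel and Traf1 4 each, and Rela 1. Foxp3 had peaks at Tnfaip3 (5), Nfkb1 (3) and Rel (1), and its table held none assigned to the other 4 genes. No measured value entered the rule that assigned peaks, and all 50 peaks were kept in the tests. The 7 genes themselves were chosen with earlier results of these data known. Shares of their peaks set beside those of all peaks are therefore descriptive.

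Chromatin immunoprecipitation and sequencing gave the occupancy of each factor in T cells of C57BL6/J mice, sorted from spleen and lymph nodes. All animals carried human CD2 at the Foxp3 locus (Foxp3-IRES-hCD2), a surface tag on cells that express Foxp3, the factor that defines regulatory T (Treg) cells. BATF and IRF4 were each measured in Treg cells (CD4+hCD2+) and in conventional T (Tconv) cells (CD4+hCD2-), with 2 libraries per cell type for BATF and 4 for IRF4. Foxp3 was measured in 4 groups of 2 libraries. The first was effector Treg cells (eTreg, CD4+hCD2+CCR7loCD62Llo), and the second was central Treg cells (cTreg, CD4+hCD2+CCR7hiCD62LhiCD44lo). The third was all Treg cells of Batf-/- mice, and the last was all Treg cells of mice with intact Batf, called wild type here. BATF was also measured, with 2 libraries per group, in R397W Treg cells (CD4+hCD2+GFP-) from Foxp3R397W-IRES-hCD2/Foxp3-IRES-GFP animals and in control Treg cells of the same gate from Foxp3WT-IRES-hCD2/Foxp3-IRES-GFP animals. R397W is a substitution in the forkhead domain of Foxp3, and animals of both these genotypes also carried a wild-type Foxp3 allele marked by GFP. Age, sex and the number of animals per library are not given in the sources used here. Nothing says that libraries of a group came from separate animals. The p-values therefore set a difference against a spread estimated from libraries, not from animals. That estimate borrows from all peaks of a table and, for Foxp3, from all 8 libraries. The tables hold no measure of BATF in the Batf-/- cells, so the deletion was not checked.

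NF-kappaB factors are dimers of Rel-family proteins that are held inactive in the cytoplasm and enter the nucleus when antigen or TNF-family receptors signal. Rel (c-Rel) and Rela (p65) carry transactivation domains, and Nfkb1 and Nfkb2 encode precursors of the p50 and p52 subunits. Nfkbia encodes the inhibitor IkappaB-alpha, Tnfaip3 encodes A20, a ubiquitin-editing enzyme that ends the signal, and Traf1 encodes an adaptor of TNF-family receptors that is itself a known NF-kappaB target. In T cells, c-Rel is needed for Treg cells to develop in the thymus. BATF belongs to the AP-1 family and IRF4 to the interferon regulatory factors, and the pair binds composite DNA elements.

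RefSeq promoter windows of GRCm38.p6, cut here to the 250 bases before the annotated transcription start, were at hand for 6 of the 7 genes (9 windows, Nfkb1 excepted). BATF or IRF4 peaks lay on 6 of them, and 4 of these, 1 per gene, are shown because the peaks covered them wholly or in part. The Tnfaip3 window (chr10:19015411-19015660, minus strand) lay wholly inside an IRF4 peak, and 142 of the 250 bases of the Rel window (chr11:23770970-23771219, minus strand) lay in another. The Rela window (chr19:5637291-5637540, plus strand) and the first of the 3 Nfkb2 windows (chr19:46304487-46304736, plus strand) each lay wholly inside a BATF peak. Capitals mark matches to a kappaB-like motif, GGNNTTTCC, or to the AP-1 motif TGANTCA, both searched on both strands, and the 2 motifs share no bases here.
Tnfaip3: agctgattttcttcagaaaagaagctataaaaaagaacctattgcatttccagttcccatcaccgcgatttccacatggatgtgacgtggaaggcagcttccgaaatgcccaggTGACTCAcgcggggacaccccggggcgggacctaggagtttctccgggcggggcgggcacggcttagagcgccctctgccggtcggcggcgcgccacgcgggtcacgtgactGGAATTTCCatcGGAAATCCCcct
Rel: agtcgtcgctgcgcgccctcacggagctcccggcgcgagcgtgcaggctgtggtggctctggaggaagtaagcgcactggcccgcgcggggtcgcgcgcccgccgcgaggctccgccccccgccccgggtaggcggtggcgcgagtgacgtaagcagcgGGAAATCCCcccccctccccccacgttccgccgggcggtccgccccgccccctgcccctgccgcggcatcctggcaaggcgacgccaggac
Rela: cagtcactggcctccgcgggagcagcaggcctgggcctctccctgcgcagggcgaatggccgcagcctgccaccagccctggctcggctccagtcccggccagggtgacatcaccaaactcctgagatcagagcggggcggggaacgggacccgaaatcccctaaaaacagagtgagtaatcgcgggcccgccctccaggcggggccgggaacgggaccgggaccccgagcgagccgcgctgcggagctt
Nfkb2: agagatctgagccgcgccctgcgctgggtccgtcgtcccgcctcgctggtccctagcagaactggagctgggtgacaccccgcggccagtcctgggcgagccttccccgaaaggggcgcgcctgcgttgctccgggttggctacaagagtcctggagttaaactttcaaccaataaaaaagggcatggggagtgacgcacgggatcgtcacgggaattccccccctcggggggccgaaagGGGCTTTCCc
The Tnfaip3 window held 2 kappaB-like matches, whose first bases lie 24 and 12 bases before the start, and 1 AP-1 match at 136 bases. The Rel window held 1 kappaB-like match at 91 bases, in the part of the window that the IRF4 peak did not cover. The Nfkb2 window held 1 at 10 bases, and the Rela window held none of either motif. In all, 5 of the 9 windows of these genes held a kappaB-like match, 2 an AP-1 match and 0 the forkhead motif TGTTTAC, against 4.93%, 6.75% and 3.17% of the 32851 windows of the table. A match describes letters and not a bound site.

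Values below are normalised reads per peak, which are reads times 1 factor per library set by the authors, and they are compared within a table only. A difference is the difference of mean log2(value + 1) with its standard error (SE) from limma, adjusted p-values are Benjamini-Hochberg values over all peaks of the table, and a peak is called higher or lower at an adjusted p under 0.05. Positions are given in kb from the start of the annotated gene body to the centre of the peak, positive in the direction of transcription. For Nfkb1, whose strand the tables do not give, they run from the end of higher coordinate into the gene. Values are given for the strongest peak of each gene in a table and for each called peak. Those added after their values were seen are BATF at Nfkb1 -39.6 kb and Nfkbia +0.5 kb, IRF4 at Tnfaip3 -0.1 kb and Nfkb1 +0.4 kb, Foxp3 at Nfkb1 +97.4 and +0.4 kb and Tnfaip3 +5.9 and +31.6 kb where not called, and R397W at Nfkb1 +51.6 kb. Reads in peaks of a library ranged over 1377509 to 2280493 for the first BATF table, 144319 to 1009580 for the second, 162580 to 336969 for IRF4 and 164740 to 393310 for Foxp3. The shallowest library, with 144319 reads, was 1 of the 2 R397W controls. The libraries hold bound DNA and not RNA, so cell identity could be looked at only through binding. Of 28 BATF peaks at 5 Treg genes (Foxp3, Il2ra, Ikzf2, Ctla4 and Nrp1), 25 were higher in Treg than in Tconv cells, with summed values of 3730 to 4137 in Treg and 836 to 889 in Tconv cells. At genes of other cell types, 1 of 3 B cell peaks was higher (sums 178 to 201 in Treg, 107 to 146 in Tconv cells), and so were 2 of 5 myeloid peaks (616 to 623 in Treg, 383 to 412 in Tconv cells). Of 13 CD8 and NK cell peaks 1 was higher and 3 were lower (604 to 652 in Treg, 725 to 739 in Tconv cells), and the 12 peaks at housekeeping genes summed to 1302 to 1423 in Treg and 1408 to 1420 in Tconv cells. For IRF4, 10 of 15 Treg gene peaks and 1 of 3 B cell peaks were higher and 1 of 5 housekeeping peaks was lower, while limma called none of 4 myeloid and 2 CD8 and NK cell peaks. Ms4a1, Cd79b, Ebf1, Lyz2, Csf1r, Cd8a and Nkg7 had no peak in any table, and the Foxp3 table had none at any of the 6 B cell and 6 myeloid genes. The part of such cells in the results below was not tested. A smaller share of cells with the factor bound and less binding per cell cannot be told apart in such bulk libraries.

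BATF was higher in Treg than in Tconv cells at 9 of the 17 peaks and lower at 0, and the 9 lay at Rel (1), Nfkb1 (2), Nfkbia (1), Tnfaip3 (3) and Traf1 (2). Of all peaks tested, 14.9% were higher and 4.79% lower (19.7% either way), which is 2395 and 772 peaks, or 2086 and 1291 after quantile normalisation. The largest differences were inside the bodies of Rel and Nfkb1 and at a place upstream of Tnfaip3. The median difference was 0.63 over the 17 peaks and -0.03 over all peaks. At an unadjusted limma p under 0.05, 10 were higher and 0 lower; edgeR called 9 higher and 0 lower, and DESeq2 7 and 0.

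Among the subunit genes, the Rel peak at +16.5 kb inside the gene (chr11:23754251-23754651) had 65.3 and 67.8 normalised reads in Treg cells, against 6.97 and 9.28 in Tconv cells. Both Treg libraries lay far above both Tconv libraries, where the peak rested on 6 and 13 reads. The difference was 2.90 (SE 0.47, adjusted p from limma 0.000224). Nfkb1 at +26.1 kb, also inside the gene (chr3:135665657-135666057), had 304 and 294 in Treg cells, against 44.1 and 55.0 in Tconv cells. The difference of 2.58 (SE 0.21, adjusted p from limma 5.88e-07) had the smallest p of the 17, and it came to 5.96-fold in value plus 1. Nfkb1 at +0.4 kb (chr3:135691328-135691728) had 305 and 268 in Treg cells and 161 and 166 in Tconv cells, again without overlap, with a difference of 0.80 (SE 0.18, adjusted p from limma 0.00321). The 2 Nfkb1 peaks thus had like levels in Treg cells, and the +26.1 kb peak was the lower one in Tconv cells. Upstream of Nfkb1 at -39.6 kb the groups overlapped, with 53.9 and 45.2 in Treg cells against 48.8 and 79.3 in Tconv cells.

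Rela and Nfkb2 gave no call. The Rela peak over the gene start (chr19:5637263-5637663) had 139 and 85.8 in Treg cells, against 127 and 116 in Tconv cells, so the Tconv libraries lay between the Treg libraries (difference -0.15, SE 0.24, adjusted p from limma 0.749). The strongest of 3 Nfkb2 peaks, at +4.7 kb over later annotated starts of the gene, had 179 and 158 in Treg cells and 118 and 126 in Tconv cells. These groups did not overlap, but the difference of 0.46 (SE 0.20) had an adjusted p of 0.129 from limma. The other 2 Nfkb2 peaks overlapped between the groups, with differences of 0.14 and 0.07.

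Among the inhibitors, Nfkbia had its called peak past the far end of the gene, at +27.7 kb (chr12:55464712-55465112). It had 237 and 280.1 in Treg cells, against 154 and 139 in Tconv cells, a difference of 0.81 (SE 0.19, adjusted p from limma 0.00406). The peak inside Nfkbia at +0.5 kb had 153 and 182 in Treg cells and 135 and 136 in Tconv cells, without overlap, and was not called (difference 0.30, adjusted p from limma 0.343). At Tnfaip3 the strongest BATF peak of the 7 genes lay upstream at -47.0 kb (chr10:19062161-19062561), with 569 and 613 in Treg cells against 347 and 418 in Tconv cells. It ranked 49 of 16109 by mean level, and the difference was 0.63 (SE 0.17, adjusted p from limma 0.0112). A weak peak at -62.9 kb (chr10:19078077-19078477) had 32.1 and 47.4 in Treg cells, against 4.65 and 7.14 in Tconv cells. Its difference of 2.56 (SE 0.59, adjusted p from limma 0.004) was near that of the Nfkb1 +26.1 kb peak. By mean level the -62.9 kb peak ranked 15874 of 16109, under the Rel peak at 14453, and its Tconv values rested on 4 and 10 reads. Past the other end of Tnfaip3, the +50.4 kb peak had 77.7 and 89.2 in Treg cells and 55.7 and 33.6 in Tconv cells, with a difference of 0.93 (SE 0.32) and an adjusted p from limma of 0.0479, just under the threshold.

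Traf1 was higher at both of its BATF peaks. Inside the gene at +3.6 kb (chr2:34958036-34958436) the values were 144 and 83.6 in Treg cells and 41.8 and 32.1 in Tconv cells, with a difference of 1.56 (SE 0.32, adjusted p from limma 0.00163). Upstream at -1.2 kb (chr2:34962854-34963254) they were 139.9 and 125 in Treg cells and 80.1 and 74.3 in Tconv cells, with a difference of 0.77 (SE 0.23, adjusted p from limma 0.021). Neither peak overlapped between the groups, as at 11 of the 17 peaks, against 56.5% of all peaks in the table. With 1 library left out, the calls at Rel and at both Nfkb1 peaks held in each of 4 fits. Without Treg library 2, the adjusted p from limma was 0.217 for Tnfaip3 +50.4 kb, 0.127 for Tnfaip3 -62.9 kb, 0.0509 for Nfkbia +27.7 kb and 0.0574 for Traf1 -1.2 kb, which left 5 calls of 9. Without Treg library 1 it was 0.0974 for Tnfaip3 +50.4 kb, 0.0622 for Traf1 +3.6 kb and 0.132 for Traf1 -1.2 kb. Without Tconv library 2 it was 0.342 for Tnfaip3 +50.4 kb and 0.0753 for Traf1 -1.2 kb, and without Tconv library 1 it was 0.153 for Tnfaip3 -47.0 kb.

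**Figure D1:**
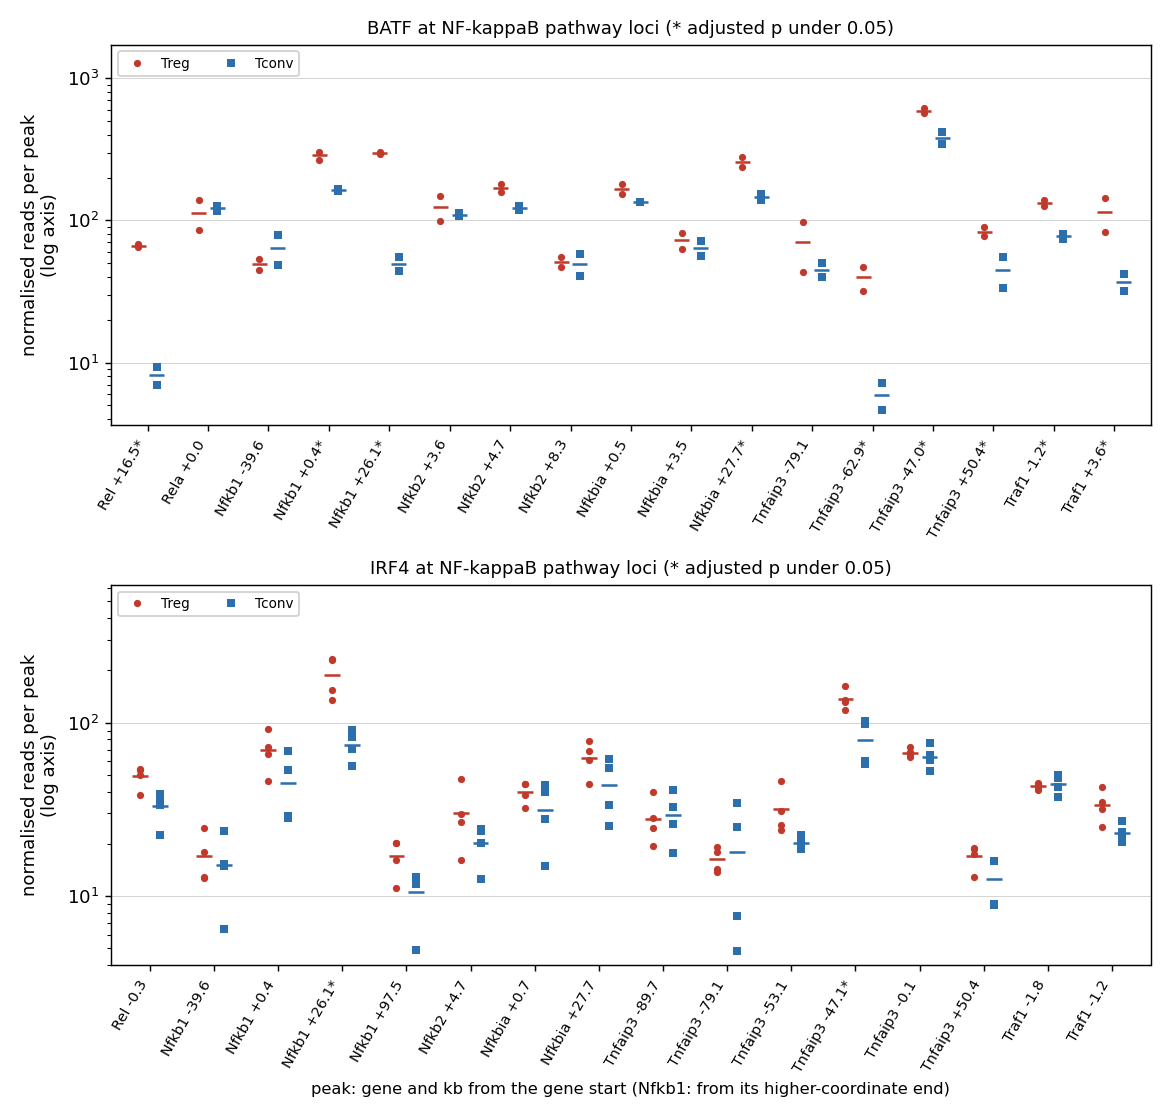
Normalised reads per peak (log axis) of BATF (top, 17 peaks) and IRF4 (bottom, 16 peaks) at the 7 genes, with 1 point per library, Treg left of Tconv, and a bar at each group mean. The clearest gaps between the groups are at Rel +16.5, Nfkb1 +26.1 and Tnfaip3 -62.9 for BATF and at Nfkb1 +26.1 for IRF4.

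IRF4 was higher in Treg than in Tconv cells at 2 of 16 peaks, 1 at Nfkb1 and 1 at Tnfaip3, and lower at 0. Of all IRF4 peaks 15.8% were higher and 8.39% lower (24.2% either way), so the share of these peaks called higher was near that of the table. The differences had a positive sign at 14 of 16, with a median of 0.50, against -0.05 over all peaks. At an unadjusted limma p under 0.05, 5 were higher and 0 lower, and edgeR and DESeq2 each called 2 higher and 0 lower.

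The Nfkb1 peak at +26.1 kb (chr3:135665664-135666064) lay on the BATF peak of the same place. IRF4 there had 230.4, 233, 135 and 153 in Treg cells, against 90.5, 82.1, 70.4 and 56.0 in Tconv cells. All 4 Treg libraries lay above all 4 Tconv libraries, and the difference was 1.30 (SE 0.23, adjusted p from limma 0.000192). At Tnfaip3 -47.1 kb (chr10:19062261-19062661), on the strong BATF peak, the values were 119, 135, 163 and 131 in Treg cells and 59.8, 98.2, 57.7 and 102 in Tconv cells. These did not overlap either, with a difference of 0.82 (SE 0.22, adjusted p from limma 0.00888). The 2 called peaks were also the strongest IRF4 peaks of the 7 genes, ranking 61 and 100 of 9134 by mean level. Both calls held with any 1 of the 8 libraries left out, and the groups were without overlap at 3 of 16 peaks, against 23.3% of the table.

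IRF4 peaks that were not called lay at or near the starts of Rel, Tnfaip3 and Nfkb2, among other places. Upstream of the Rel start at -0.3 kb the values were 53.5, 53.9, 50.2 and 38.4 in Treg cells and 22.6, 36.9, 33.4 and 38.9 in Tconv cells, with 1 Treg library just under the highest Tconv library (difference 0.57, adjusted p from limma 0.103). The peak over the Tnfaip3 start, whose sequence is given above, had 67.3, 63.4, 72.7 and 65.6 in Treg cells and 52.5, 60.6, 76.7 and 65.1 in Tconv cells, which overlapped throughout (difference 0.09, SE 0.21). Nfkb2 at +4.7 kb had 26.7, 47.6, 29.9 and 16.2 in Treg cells and 20.2, 23.7, 24.4 and 12.6 in Tconv cells (difference 0.50, adjusted p from limma 0.315). For Nfkbia +27.7 kb, where BATF was called, IRF4 had 78.3, 44.4, 68.4 and 60.5 in Treg cells against 54.9, 33.4, 25.3 and 61.7 in Tconv cells, with overlap and an adjusted p of 0.138 from limma. The stronger of 2 Traf1 peaks, at -1.8 kb, had 45.2, 44.4, 42.7 and 40.9 in Treg cells and 37.2, 42.5, 49.6 and 48.0 in Tconv cells, a difference of -0.02 (SE 0.23). At Nfkb1 +0.4 kb the difference was 0.67 (SE 0.28, adjusted p from limma 0.0849). Whether the BATF and IRF4 differences at a place differ from each other was not tested, since the tables were scaled separately.

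Foxp3 occupancy was compared between Treg cells that lack BATF and wild-type Treg cells. It was lower in Batf-/- cells at 2 of 9 peaks, 1 in Nfkb1 and 1 past the far end of Tnfaip3, and higher at 0, where 3.91% of all Foxp3 peaks were lower and 0.547% higher (4.46% either way). At an unadjusted limma p under 0.05, 2 were lower and 1 higher; edgeR called 2 lower and 0 higher, and DESeq2 1 and 0. The sign was positive at 5 of the 9 peaks, and the median difference was 0.14, against 0.05 over all peaks. The binding at Treg marker genes (33 peaks) was lower at 3, with summed values of 1449 to 1517 in Batf-/- and 1702 to 1728 in wild-type cells, and its part in the results was not tested.

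Nfkb1 at +26.0 kb (chr3:135665815-135666215) had 32.5 and 33.5 in Batf-/- cells, against 66.7 and 85.2 in wild-type cells. The difference was -1.17 (SE 0.26, adjusted p from limma 0.00619), and both knockout libraries lay under the lower of the wild-type libraries. This is the place where BATF and IRF4 were both higher in Treg cells. The Nfkb1 peak at +0.4 kb, where BATF and IRF4 also had peaks, had 70.1 and 59.2 in Batf-/- cells and 75.8 and 61.8 in wild-type cells, which overlapped (difference -0.09, SE 0.27, adjusted p from limma 0.92). Nfkb1 at +97.4 kb had 25.4 and 34.7 in Batf-/- cells and 22.2 and 32.6 in wild-type cells. The Rel peak at +27.3 kb was weak in both, with 13.2 and 14.2 in Batf-/- cells and 14.2 and 20.0 in wild-type cells (difference -0.28, adjusted p from limma 0.76).

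Tnfaip3 at +73.7 kb (chr10:18941480-18941880) had 3.05 and 11.6 in Batf-/- cells, against 23.3 and 25.1 in wild-type cells. The lower knockout value stood for 3 reads, and the difference was -1.82 (SE 0.47, adjusted p from limma 0.0248). The strongest Tnfaip3 peak, at -51.7 kb, had 124 and 108 in Batf-/- cells and 87.0 and 80.2 in wild-type cells, without overlap, and was not called (difference 0.47, SE 0.26, adjusted p from limma 0.38). The +31.6 kb peak was the one higher at an unadjusted p, with 56.9 and 93.9 in Batf-/- cells and 47.5 and 33.4 in wild-type cells (adjusted p from limma 0.27). The groups did not overlap at 6 of 9 peaks, against 43.1% of the table. The Tnfaip3 call rested on single libraries, with an adjusted p from limma of 0.172 without knockout library 1, 0.128 without wild-type library 1 and 0.174 without wild-type library 2. The Nfkb1 call was lost without wild-type library 2 (difference -0.995, adjusted p from limma 0.124) and held without any of the other 3.

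Between Treg subsets, Foxp3 was higher in eTreg than in cTreg cells at 4 of 9 peaks, 2 in Nfkb1 and 2 past the far end of Tnfaip3, and lower at 1, upstream of Tnfaip3. Of all Foxp3 peaks 15.0% were higher and 10.8% lower (25.7% either way). The median difference was 0.43 at the 9 peaks and -0.01 over all peaks. Tnfaip3 had peaks called in both directions. At an unadjusted limma p under 0.05, 4 were higher and 1 lower; edgeR called 4 and 1, and DESeq2 3 and 1. At Treg marker genes 7 of 33 peaks were higher and 3 lower, with summed values of 1410 to 1583 in eTreg and 1205 to 1274 in cTreg cells, and their part in the results was not tested.

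Nfkb1 at +97.4 kb (chr3:135594403-135594803), near the far end of the gene body, had 74.8 and 73.8 in eTreg cells, against 16.0 and 23.0 in cTreg cells. The difference was 1.90 (SE 0.31, adjusted p from limma 7.92e-05), a 3.73-fold one on the scale of value plus 1. Nfkb1 at +26.0 kb had 82.4 and 101 in eTreg cells and 55.9 and 50.4 in cTreg cells, also without overlap but with a smaller difference of 0.77 (SE 0.26, adjusted p from limma 0.0268). At +0.4 kb the values were 40.5 and 35.2 in eTreg cells and 25.3 and 30.4 in cTreg cells, and the difference of 0.43 was not called (adjusted p from limma 0.273). Rel at +27.3 kb overlapped, with 21.5 and 30.6 in eTreg cells and 33.3 and 27.4 in cTreg cells.

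Tnfaip3 at +73.7 kb, the peak that was lower in Batf-/- cells, had 52.0 and 50.2 in eTreg cells, against 7.99 and 5.19 in cTreg cells. This was the largest difference of the 9, at 2.80 (SE 0.47, adjusted p from limma 9.89e-05) or 6.98-fold on the scale of value plus 1. At +50.4 kb (chr10:18964787-18965187), a place shared with BATF and IRF4, the values were 41.8 and 26.5 in eTreg cells and 12.0 and 10.4 in cTreg cells, with a difference of 1.498 (SE 0.37, adjusted p from limma 0.00322). The upstream peak at -51.7 kb (chr10:19066923-19067323) went the other way, with 15.2 and 19.0 in eTreg cells and 41.3 and 44.5 in cTreg cells, and the difference was -1.28 (SE 0.26, adjusted p from limma 0.000566). All 4 libraries of sorted subsets lay under the 4 of unsorted Treg cells at that peak, and likewise at +31.6 kb and +5.9 kb of Tnfaip3 and at +0.4 kb of Nfkb1, while at Rel +27.3 kb all 4 lay above them. At +5.9 kb, inside Tnfaip3, the values were 24.1 and 14.4 in eTreg cells, 13.3 and 19.3 in cTreg cells, 67.1 and 66.9 in Batf-/- Treg cells and 63.7 and 52.6 in wild-type Treg cells. Sorted and unsorted cells were not compared by a test, and levels are set side by side only. The share of all Foxp3 peaks that split in this way was not counted, so the pattern cannot be called particular to these genes.

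The groups did not overlap at 6 of 9 peaks between eTreg and cTreg cells, against 64.2% of the table. Of the 5 calls, 3 held with any 1 library left out, namely Nfkb1 +97.4 kb, Tnfaip3 +73.7 kb and Tnfaip3 -51.7 kb. That at Tnfaip3 +50.4 kb was lost without eTreg library 1 (adjusted p from limma 0.0895). That at Nfkb1 +26.0 kb was lost without any 1 of the 4 libraries, with adjusted p-values from limma of 0.0609 without eTreg library 1, 0.23 without eTreg library 2, 0.0764 without cTreg library 1 and 0.15 without cTreg library 2.

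**Figure D2:**
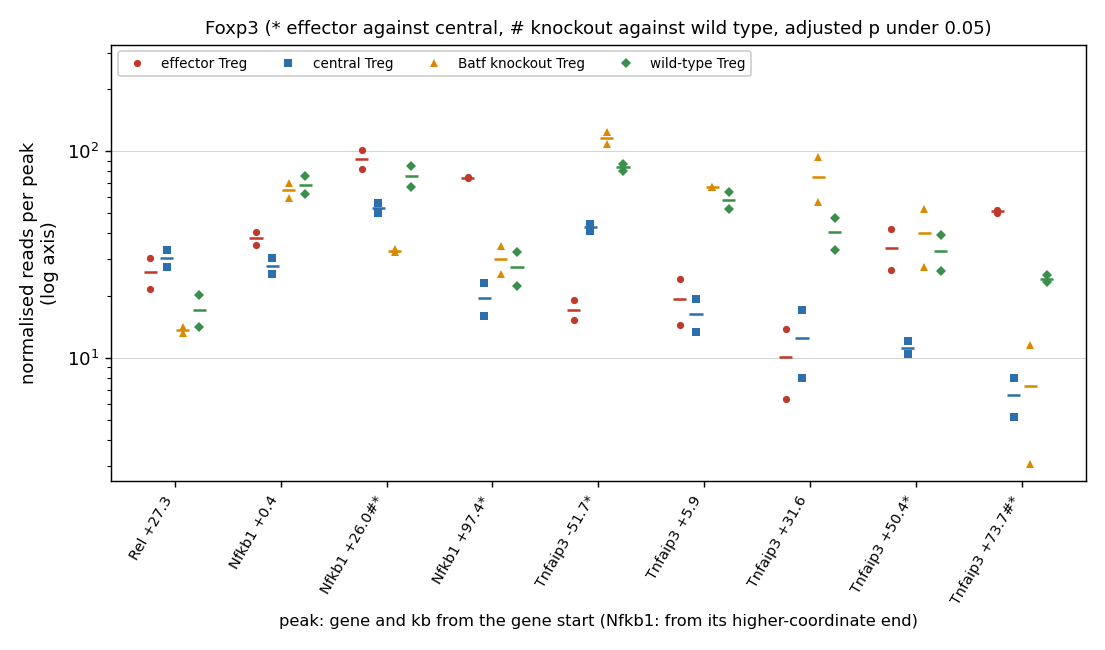
Normalised Foxp3 reads (log axis) at the 9 peaks of Rel, Nfkb1 and Tnfaip3, with 1 point per library and a bar at each group mean, in the order eTreg, cTreg, Batf-/- and wild type. At Tnfaip3 +73.7 the eTreg libraries are the highest and the cTreg and Batf-/- libraries the lowest, and at Tnfaip3 -51.7 the eTreg libraries are the lowest.

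BATF occupancy in Treg cells with the Foxp3 R397W allele was compared with their controls over 8 peaks. It was lower at 1, in Rel, and higher at 0, where 8.04% of all its peaks were lower and 0.612% higher (8.65% either way). At an unadjusted limma p under 0.05, 2 were lower and 0 higher; edgeR called 1 lower and 0 higher, and DESeq2 0 and 0. The median difference was -0.22, against -0.02 over all peaks. Quantile normalisation moved the median of all peaks by 0.15, and the Rel peak was then not called (difference -1.23, adjusted p from limma 0.102). At Treg marker genes 4 of 8 peaks were lower, with summed values of 245 to 299 in R397W cells and 760.4 to 844 in controls. At myeloid genes 1 of 3 was lower (31.9 to 32.5 in R397W cells, 83.0 to 92.5 in controls). Of 2 B cell peaks 0 were called (60.3 to 87.2 in R397W cells, 66.3 to 79.5 in controls). The same held for 9 CD8 and NK cell peaks (186 to 191.5 in R397W cells, 205 to 228 in controls). It also held for 4 housekeeping peaks (162 to 176 in R397W cells, 135 to 139 in controls). The part of such cells in the results was not tested. The Treg and Tconv libraries of this table are those of the first BATF table with other peaks and factors, and their values are given only for scale.

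Rel at +16.5 kb (chr11:23754267-23754667) had 23.9 and 20.8 in R397W cells, against 78.7 and 45.0 in controls. Both R397W libraries lay under both controls, and the difference was -1.38 (SE 0.42, adjusted p from limma 0.0493). In the same table the Treg cells had 38.1 and 39.4 and the Tconv cells 4.23 and 5.71, so the R397W values lay between these. The call was lost without any 1 of the 4 libraries, with adjusted p-values from limma of 0.107 and 0.147 without R397W library 1 and library 2 and of 0.0937 without the shallower control, where the peak had 13 reads. Without the deeper control the difference was -0.98 (adjusted p from limma 0.395).

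Nfkb1 at +26.1 kb had 161 and 156 in R397W cells and 217 and 256 in controls, without overlap, and was not called (difference -0.57, SE 0.22, adjusted p from limma 0.12). For scale, the Treg libraries of the first BATF table had 174 and 169 at this peak and the Tconv libraries 26.8 and 33.8. Those Treg values also lay under both controls, so genotype and library set cannot be told apart when R397W cells are set beside them. An Nfkb1 peak at +51.6 kb, which only this table holds, had 39.3 and 21.5 in R397W cells and 49.4 and 41.5 in controls (adjusted p from limma 0.422), and 37.5 and 45.9 in Treg against 6.34 and 1.76 in Tconv cells. Nfkbia at +27.7 kb overlapped, with 127 and 171 in R397W cells and 126 and 183 in controls. So did Tnfaip3 at +50.4 kb, with 35.9 and 47.1 in R397W cells and 38.6 and 20.8 in controls, and Nfkb2 at +8.2 kb, with 29.1 and 31.9 in R397W cells and 33.9 and 20.8 in controls. The groups did not overlap at 5 of 8 peaks, against 51.5% of the table.

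**Figure D3:**
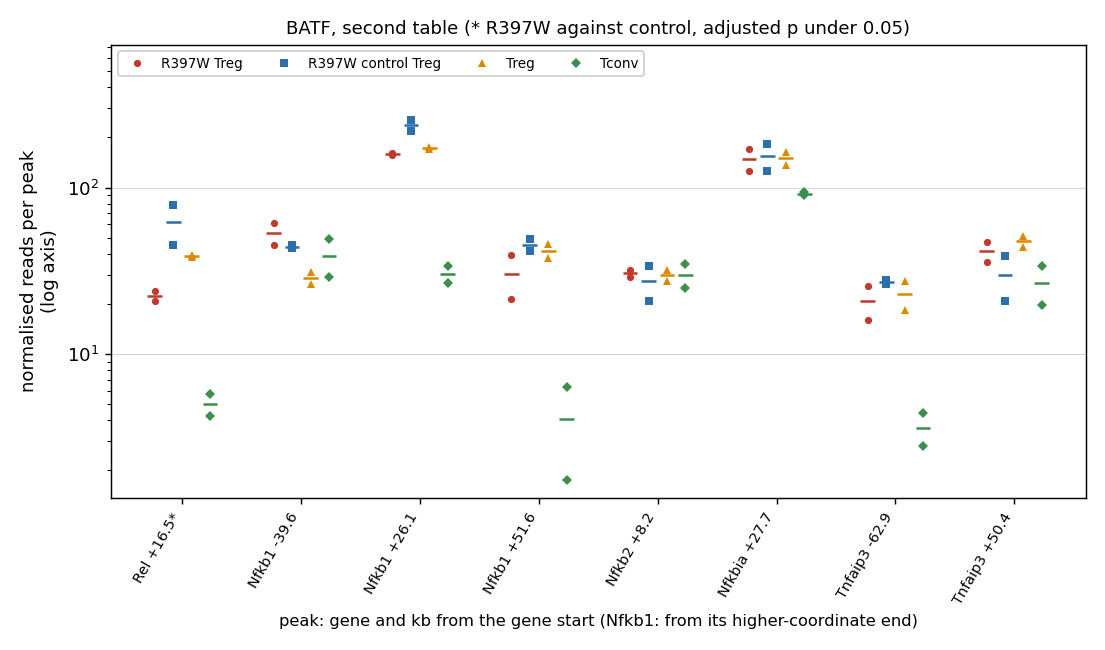
Normalised BATF reads (log axis) at the 8 peaks of the second BATF table, with 1 point per library and a bar at each group mean, in the order R397W, R397W control, Treg and Tconv. At Rel +16.5 both R397W libraries are under both controls and above both Tconv libraries.

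The peaks of the 4 tables fell on 29 separate places, of which 11 had peaks of at least 2 factors overlapping by 1 bp or more. All 3 factors met at 3 places, Nfkb1 +26.1 kb, Nfkb1 +0.4 kb and Tnfaip3 +50.4 kb. BATF and IRF4 shared another 7, IRF4 and Foxp3 shared 1 (Nfkb1 +97.5 kb), and 8 were of BATF alone, 5 of IRF4 alone and 5 of Foxp3 alone. The Rel gene had 3 places, each with 1 factor. Of the 17 BATF peaks (first table) 58.8% overlapped an IRF4 peak, against 43.0% of its whole list, and 62.5% of the 16 IRF4 peaks met one of BATF, against 76.0% of that list. Of the 9 Foxp3 peaks 33.3% overlapped a BATF peak, against 48.2% of the list, and 44.4% an IRF4 peak, against 39.7%. The 5 places with Foxp3 alone were 4 at Tnfaip3 (-51.7, +5.9, +31.6 and +73.7 kb) and 1 at Rel (+27.3 kb).

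**Figure D4:**
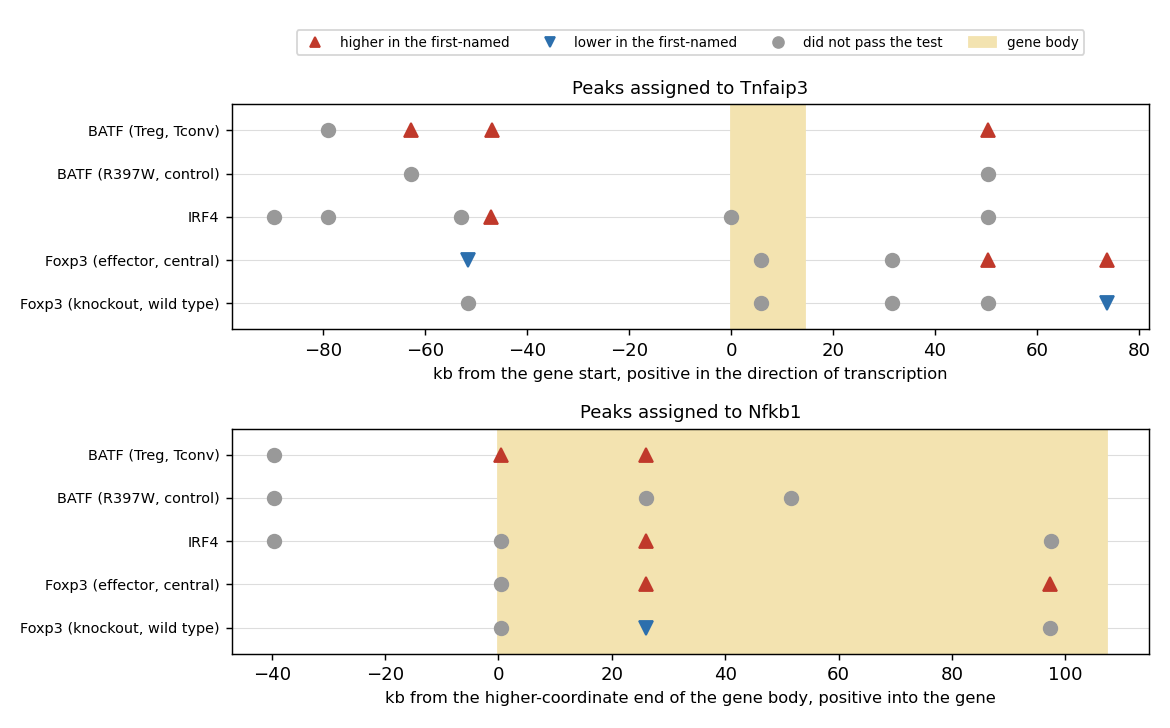
Peaks assigned to Tnfaip3 (top) and Nfkb1 (bottom) by kb from the gene start (Nfkb1: from its end of higher coordinate), with 1 line per comparison and the gene body shaded. Upward marks were higher and downward marks lower in the group named first at the left, and grey marks did not pass the test. Nfkb1 at about +26 kb is called in 4 of the 5 comparisons.

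The other genes of the pathway, 46 kinases, adaptors, receptors and regulators, took 244 peaks. For BATF 16 of their 101 peaks were higher in Treg cells and 6 lower (median difference 0.12). These are 15.8% and 5.94%, near the 14.9% and 4.79% of all peaks. Among peaks above the 25th percentile of level the counts were 11 and 2. For IRF4 6 of 60 were higher and 6 lower (median 0.04), which is 10% each, against 15.8% and 8.39% of all peaks. Foxp3 in Batf-/- cells was lower at 4 of 32 (median 0.03), which became 1 without wild-type library 1 or library 2 and 2 without knockout library 2. It was 1 with quantile normalisation or DESeq2, and 2 with the level filter or only the 4 libraries compared. In the main fit 12.5% of the 32 were lower, against 3.91% of all Foxp3 peaks. Foxp3 in eTreg cells was higher at 4 and lower at 8 of 32 (median 0.07), or 2 and 4 without eTreg library 2. BATF in R397W cells was lower at 5 of 51 (median -0.15), or at 2 without R397W library 1, and without the shallower control limma called none of the 51. It was 3 with quantile normalisation, 1 by DESeq2 and 0 by limma with no trend of the spread. In the main fits Foxp3 in eTreg cells was higher at 12.5% and lower at 25% of the 32. Over all Foxp3 peaks these shares were 15.0% and 10.8%. BATF in R397W cells was lower at 9.80% of the 51, near the 8.04% of all its peaks. Nfkbiz, which encodes the nuclear inhibitor-like protein IkappaB-zeta, had 162 and 150.2 for BATF in Treg cells, against 43.0 and 32.8 in Tconv cells (difference 2.02, adjusted p from limma 3.17e-05). Tnip3, a partner of A20, had 19.3 and 12.9 for Foxp3 in Batf-/- cells, against 32.4 and 43.4 in wild-type cells (difference -1.20, adjusted p from limma 0.0374). Another Tnip3 peak had 38.0 and 47.9 for Foxp3 in eTreg cells and 13.3 and 5.19 in cTreg cells (difference 2.21, adjusted p from limma 0.000685). Prkcq, the kinase PKC-theta of antigen receptor signalling, was lower for Foxp3 in eTreg cells, with 31.7 and 35.8 against 67.9 and 89.0 in cTreg cells (difference -1.18, adjusted p from limma 0.00096). Tank, a TRAF-binding adaptor, had 17.1 and 4.85 for BATF in R397W cells and 54.0 and 62.3 in controls (difference -2.52, adjusted p from limma 0.0125), and was not called without the shallower control.

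Rel, Nfkb1 and Tnfaip3 had peaks in the first BATF, the IRF4 and the Foxp3 table, so their summed values could be set beside those of 1612 genes over 20 libraries, on a log2 scale centred within each table. The genes most like Nfkb1 were Ahr (Pearson r 0.94), Rbm47 (0.94) and Tbc1d4 (0.93), and those most like Tnfaip3 were Pim1 (0.93), Tagap (0.92) and Atf3 (0.91). For Rel they were Atp6v1g3 (0.84), Ociad1 (0.83) and Lrmp (0.82). These points share libraries, depth and scaling, and 5 in 100 genes exceeded 0.61 for Rel and 0.83 for each of the other two.

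Peaks left unassigned by the distance limit lay near Tnfaip3 and far from the other 6 genes. The farthest member was the IRF4 peak at -89.7 kb of Tnfaip3, and the nearest unassigned peaks began 101633 to 101664 bp from the gene in 3 tables. That unassigned place had 286 ± 37.5 for Foxp3 in Batf-/- cells and 210.2 ± 2.74 in wild-type cells (SD, n = 2 each), and 48.9 ± 9.99 in eTreg against 88.9 ± 12.7 in cTreg cells (SD, n = 2 each). The member peak nearest to the limit in the Foxp3 table, at +73.7 kb, averaged 7.31 ± 6.03 in Batf-/- and 24.2 ± 1.28 in wild-type cells (SD, n = 2 each). For BATF the unassigned place had 178 ± 21.5 (SD, n = 2) in Treg and 115 ± 31.8 (SD, n = 2) in Tconv cells, and the farthest member, at -79.1 kb, had 70.9 ± 38.7 in Treg and 45.0 ± 7.04 in Tconv cells, again over 2 libraries each.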

How the data were processed

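Chromatin immunoprecipitation followed by sequencing was deposited as 4 tables of peaks with a value per library, from 24 of 34 samples; the 10 input samples were not analysed here. Per the submitters' processing notes the reads were handled with Bowtie2 2.4.1, MACS2 2.2.7.1, DiffBind 3.12.0 and edgeR 3.38.4 and mm10 was the genome; the role and settings of each are not given in the sources used here. The authors deposited a normalised signal per peak and library on 1 shared set of peaks per table, of which 99.7% to 99.9% were 400 bp long and the longest 799 bp. In each library all values (100%) were whole multiples of 1 step within 0.01 reads, so reads per peak were recovered and used for the count tests given as alternatives.

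The members and lists were chosen with earlier results of these data known. Gene bodies came from a RefSeq table of GRCm38.p6 (mm10), and coordinates are printed as deposited, since whether starts count from 0 or 1 was not settled. Values were tested on log2(value + 1) with limma 3.58.1 (R 4.3.3), with a trend of the spread on the level and Benjamini-Hochberg adjustment over the table. The BATF and IRF4 fits used the libraries compared, the Foxp3 fits all 8 libraries of the table, and the R397W fit its 4 libraries. The code was tested on simulated data. Alternatives were edgeR 4.0.16, DESeq2 1.42.0, pseudocounts of 0.5 and 5, a filter at the 25th percentile, other scalings, no trend, a robust fit, single libraries left out, a replicate block and other distance rules. Named were, by rule, the strongest peak of each gene in each table and each called peak, up to 6 per gene and comparison, and the 3 called genes of smallest p per comparison from the list of other pathway genes, of which some are printed and others are not reported here. Libraries of a group differed by more than sampling noise (chi-square per degree of freedom 1.4 to 4.98), so none was taken as a duplicate. PCR copies cannot be told from separate fragments, so the depths bound counting error only.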

Additional observations from a re-analysis of the deposited data

Results flagged for a closer look

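Of 32 groups of 4 libraries at the IRF4 peaks, 1 held a library far from the rest, and chance gives about 1 in 20 such groups. At Nfkb1 +97.5 kb (chr3:135594309-135594709), Tconv library 2 had 4.87 normalised reads, where the other 3 Tconv libraries lay between 11.7 and 12.9. The Treg libraries had 20.3, 11.1, 20.3 and 16.2, and the peak was not called between the cell types (difference 0.68, adjusted p from limma 0.26).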

How the results depend on the processing

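Named peaks were counted once per comparison, so a Foxp3 peak could count 2 times. Of 33 such entries 19 were called. Of these, 6 kept their call and direction under every alternative that gave them a value, 13 lost it under at least 1, and 0 turned round; of the other 14, 0 gained a call and 6 changed sign under some alternative. The level filter removed BATF at Rel +16.5 kb, which is among the 6, and at Tnfaip3 -62.9 kb, and gave no value for them. The cause was not tested in any case, except that the distance rules leave fewer peaks. Counts of called peaks moved as follows. BATF in Treg against Tconv cells (9) gave 4 with no trend of the spread, 4 inside gene bodies, 6 with the level filter and 5 to 8 with 1 library left out. IRF4 (2) gave 1 with no trend, 1 inside bodies and 2 to 3 with 1 library left out; the third call, without Treg library 2 or Tconv library 4, was each time at a peak outside the 33. Foxp3 in Batf-/- cells (2) gave 1 with the level filter, quantile normalisation, DESeq2, only the 4 libraries compared, peaks within 50000 bp and peaks inside bodies, and 0 to 2 with 1 library left out. Foxp3 in eTreg cells (5) gave 3 within 50000 bp, 2 inside bodies and 3 to 4 with 1 library left out. BATF in R397W cells (1) gave 0 with a pseudocount of 0.5, quantile normalisation, median-of-ratios scaling, no trend, DESeq2, all 8 libraries or any 1 library left out. Over all peaks R397W gave 61 higher and 802 lower, against 11 and 160 with no trend and 7 and 308 by DESeq2, Batf-/- gave 35 and 250 against 7 and 129 by DESeq2, and BATF in Treg cells gave 772 lower against 444 by DESeq2. Quantile normalisation moved the median of all BATF peaks by -0.10.

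Differences changed sign, with no call on either side, when 1 library was left out. They ran over -0.495 to 0.193 for Rela BATF, -0.104 to 0.0317 for Traf1 IRF4 at -1.8 kb, -0.232 to 0.0587 for Nfkb1 Foxp3 at +0.4 kb in Batf-/- cells and -0.470 to 0.0157 for Rel Foxp3 in eTreg cells. For BATF in R397W cells they ran over -0.315 to 0.217 at Nfkbia (-0.265 to 0.168 with an R397W library left out) and -0.152 to 0.532 at Nfkb2. For Nfkbia in R397W cells the difference was 0.0116 with median-of-ratios scaling, 0.0826 by edgeR and 0.0481 by DESeq2. Where leaving out a library left 1 in a group, it was assumed to vary like the others. With replicate number as a block the counts were 9, 2, 2 and 5, as without it. Over all peaks the block gave 2655 higher and 1149 lower for BATF, against 2395 and 772 without it. For IRF4 it gave 1569 and 856 against 1442 and 766, and for Batf-/- 33 and 254 against 35 and 250. Libraries of 1 number correlated in their deviations at 0.0882 (BATF), 0.0346 to 0.132 (IRF4), 0.0761 (Batf-/-) and 0.139 (subsets). With 2 libraries per group, unlike numbers give the same value with the sign reversed. Not every IRF4 library correlated best with its own number, and R397W controls carry none. The numbers were not taken as pairing, and a batch shared by libraries of 1 number was not tested. At a reciprocal overlap of 50%, 10 places had at least 2 factors, against 11.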
